A study of Mus musculus with 10 samples.

Results

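The collagen and stromal matrix genes examined here were Col1a1, Col1a2, Col3a1, Dcn, Lum, Sparc, Serpinh1, Pdgfra, Pdgfrb and Pdpn, 10 of the 34745 genes in the table. They were chosen by gene symbol as genes of connective tissue cells, with earlier results of these data known. All 10 were found once and all 10 passed the filter on low counts. They were measured in messenger RNA of cells washed out of the peritoneal cavity of mice with polymicrobial sepsis, which cecal ligation and puncture causes by letting gut contents leak into the abdomen. The 5 libraries named AX were read as amlexanox-treated and the 5 named NC as vehicle-treated, because the series compares amlexanox with vehicle, although neither abbreviation is explained in the labels. Amlexanox, an anti-inflammatory drug, inhibits the kinases TBK1 and IKKε. Every group had sepsis, so there is no group without injury. The sources used here do not give strain, sex, age, dose or time after surgery. Levels are CPM, that is, raw counts scaled to an effective library size of 1000000, and fold changes are AX over NC.

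Fibrillar collagens are the rope-like proteins of connective tissue. Type I collagen is assembled from the chains encoded by Col1a1 and Col1a2 and type III from the chain encoded by Col3a1, and the chains fold in the endoplasmic reticulum with the help of the chaperone that Serpinh1 encodes. Decorin and lumican, from Dcn and Lum, are small leucine-rich proteoglycans that bind collagen fibrils. SPARC is a secreted protein that binds collagen and calcium. Pdgfra and Pdgfrb encode the receptors for platelet-derived growth factor, which mark fibroblasts and pericytes. Pdpn encodes podoplanin, a surface glycoprotein of mesothelium, lymphatic endothelium, fibroblastic stroma and some activated macrophages. Leukocytes, which make up most lavage cells, are not known as a main source of fibrillar collagen, whereas mesothelial cells and the stroma beneath them are.

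The members lie on 8 chromosomes of mm10. Col1a1 spans 94936224 to 94953042 on the plus strand of chromosome 11, and Sparc 55394500 to 55420080 on the minus strand of the same chromosome. Col1a2 spans 4504814 to 4541544 of chromosome 6 (plus strand), Col3a1 45311538 to 45349706 of chromosome 1 (plus), Serpinh1 99345375 to 99353230 of chromosome 7 (minus) and Pdpn 143267431 to 143299564 of chromosome 4 (minus). Dcn, from 97479500 to 97518162, and Lum, from 97565501 to 97572703, are neighbours on the plus strand of chromosome 10, with 47.3 kb between them. Kera and Epyc, which encode 2 further small proteoglycans, follow on the same side and had no count in any library, which allows between 0.192 and 0.313 CPM per library at 3 counts (counting error only). Only Col1a2 and Pdgfra overlap another gene of the table, and those overlapping genes had between 0 and 2 counts per library.

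The promoters of 4 genes are shown as examples: a type I collagen chain, the type III chain, the collagen chaperone and podoplanin. RefSeq promoters of build GRCm38.p6, from 250 bases before to 50 after the annotated start, were matched for 6 of the 10 members. The lines give, 5′ to 3′ on the gene's strand, chr6:4505368-4505667 (plus strand) for Col1a2, chr1:45311288-45311587 (plus) for Col3a1, chr7:99353190-99353489 (minus) for Serpinh1 and chr4:143299515-143299814 (minus) for Pdpn. Capitals mark matches, on either strand, to 4 short promoter motifs. These are the box searched as CCAAT, which several general activators bind, and the box searched as TATAAA, near which transcription often starts. The others are the binding box of Sp1-type factors, searched as GGGCGG, and the core of the heat shock element, searched as GAANNTTC. No 2 matches overlap in the windows shown.
Col1a2: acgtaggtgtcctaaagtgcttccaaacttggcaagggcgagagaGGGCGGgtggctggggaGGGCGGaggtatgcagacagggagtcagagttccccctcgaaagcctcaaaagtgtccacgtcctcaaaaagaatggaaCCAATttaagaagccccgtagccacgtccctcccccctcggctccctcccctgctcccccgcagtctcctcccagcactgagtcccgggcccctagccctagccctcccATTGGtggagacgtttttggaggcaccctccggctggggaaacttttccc
Col3a1: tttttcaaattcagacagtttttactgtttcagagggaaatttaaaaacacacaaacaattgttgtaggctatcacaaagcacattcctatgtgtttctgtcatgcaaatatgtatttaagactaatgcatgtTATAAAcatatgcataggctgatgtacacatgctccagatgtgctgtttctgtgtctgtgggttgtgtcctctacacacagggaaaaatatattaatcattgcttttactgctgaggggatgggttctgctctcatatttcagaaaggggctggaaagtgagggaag
Serpinh1: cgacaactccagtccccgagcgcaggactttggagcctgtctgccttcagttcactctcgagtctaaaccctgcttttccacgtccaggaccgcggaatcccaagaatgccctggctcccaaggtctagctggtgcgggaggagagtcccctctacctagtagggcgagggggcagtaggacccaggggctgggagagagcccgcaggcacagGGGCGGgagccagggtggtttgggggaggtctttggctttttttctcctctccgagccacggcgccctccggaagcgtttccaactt
Pdpn: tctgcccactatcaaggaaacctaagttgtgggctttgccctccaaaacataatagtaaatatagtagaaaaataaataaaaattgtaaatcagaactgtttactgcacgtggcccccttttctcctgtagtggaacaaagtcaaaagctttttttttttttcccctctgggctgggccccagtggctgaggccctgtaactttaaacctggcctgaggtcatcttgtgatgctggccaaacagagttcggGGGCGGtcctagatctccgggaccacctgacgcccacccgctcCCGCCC
With the annotated start counted as base 0, Col1a2 held CCAAT at -109 to -105 and, on the other strand, at 0 to 4, and GGGCGG at -205 to -200 and -188 to -183. The start annotated for Col1a2 in RefSeq, 4505618, lies inside the gene span of the table. Col3a1 held 1 TATAAA, at -117 to -112, and none of the other motifs. Serpinh1 held 1 GGGCGG, at -37 to -32, and Pdpn held that motif at 1 to 6 and, on the other strand, at 44 to 49. Among 32851 promoters of the same length, CCAAT was present in 37.4%, TATAAA in 13.6%, GGGCGG in 35.7% and GAANNTTC in 7.86%. The 4 windows thus share no single motif of those searched, and the base composition differed, at 61% G and C in Col1a2, 37.7% in Col3a1, 62.3% in Serpinh1 and 48.7% in Pdpn, against a median of 52.7% over all promoters.

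Total counts per library ran from 10221170 to 13806885, and no 2 libraries agreed within counting noise. The summed level of markers of leukocytes was 3388 to 5965 CPM in AX and 4572 to 9842 CPM in NC for 8 general leukocyte genes. Single markers did not move together: Ptprc, which encodes CD45, stood at 22.4 CPM in AX 8 but 374 to 1028 CPM in the other AX libraries and 355 to 1180 CPM in NC, and Itgam, which encodes CD11b, stood at 109 to 547 CPM in AX, against 3391 CPM in NC 3 and no more than 541 CPM elsewhere in NC. For 16 neutrophil genes the sum was 7994 to 15504 CPM in AX and 9249 to 18779 CPM in NC. Fitted values lay higher in AX for 1 and lower for 7 of the leukocyte genes, and higher for 4 and lower for 12 of the neutrophil genes, with 0 passing in either list. Without AX 6 and NC 1 together, 1 of the leukocyte genes and 2 of the neutrophil genes lay higher. AX 6 and NC 1 stood apart in the genes described here, and fitted directions and medians are given with and without them. Because each library is a mixture of cells, fewer cells of a type and less RNA per cell cannot be told apart in these data.

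Per unit of gene length, decorin mRNA was the most abundant of the 10. The FPKM values deposited by the authors, which divide counts by gene length and library total, put Dcn first, with a median of 160 FPKM over the 10 libraries and a range from 77 in NC 4 to 1096 in AX 6. Only 2.19% of all genes tested had a median at least that high. With GENCODE M21 exon lengths in place of the authors' lengths, the median of Dcn was 57.3 and that of Pdpn 48.5, so the gap between the first and the next gene depends on the length used. The order of the 10 genes by median was the same. Pdpn followed at a median of 40.6 FPKM, Serpinh1 at 15.1, Sparc at 7.76 and Lum at 4.8. The 3 fibrillar collagen genes lay lower, Col3a1 at a median of 2.54, Col1a1 at 1.96 and Col1a2 at 1.4 FPKM, near or below the middle of the genes tested. Both growth factor receptor genes were lowest, Pdgfra at 0.439 and Pdgfrb at 0.323 FPKM, and Pdgfrb rested on 15 to 54 counts per library. Dcn lay above Pdpn and Pdpn above Serpinh1 in 10 of 10 libraries, and Col1a2 above Pdgfra likewise, although the ranges of each pair overlapped. Order was not fixed among the collagens: Col3a1 exceeded Col1a1 in 7 of 10 libraries and Col1a1 exceeded Col1a2 in 8 of 10. Dcn alone supplied between 49.1% (NC 2) and 67.5% (AX 7) of all counts of the 10 genes in a library.

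**Figure D1:**
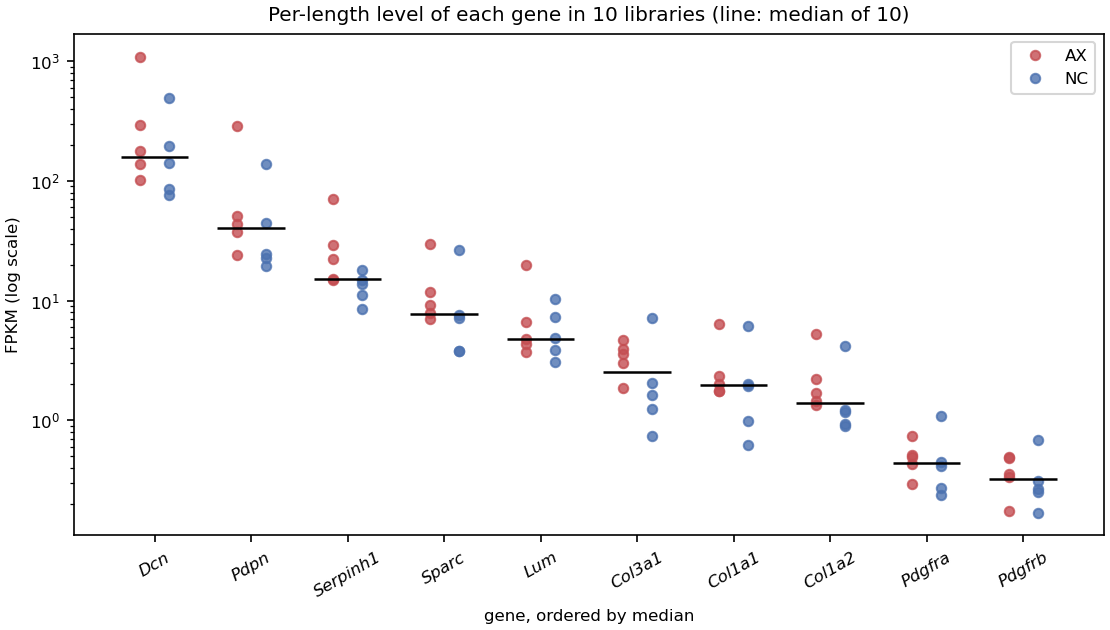
FPKM on a log axis for each of the 10 genes, ordered by their median, with 1 point per library (AX left of NC) and a line at the median of 10 libraries. Dcn leads at a median of 160 FPKM, the collagen genes lie between 1.4 and 2.54, and the receptor genes are lowest.

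The comparison of AX with NC asked whether the matrix genes differed between amlexanox-treated and vehicle-treated mice, and 0 of the 10 passed the threshold. With the quasi-likelihood test of edgeR and Benjamini-Hochberg adjustment over 12264 genes, 0% of all genes passed an adjusted p of 0.05. At an unadjusted p under 0.05 were 113 genes, or 0.921%, and DESeq2 put 193 and limma-voom 132 there, also with 0 calls each. All 10 members had a fitted value higher in AX, where 53.6% of the genes tested did. Their median log2 fold change was 0.57, against 0.02 over all genes tested, and 7 of the 10 reached 0.5 or more, as did 9.12% of the genes tested. The direction depended on which high library was left out. Without AX 6 alone, 5 of 10 members had a higher fitted value in AX and their median was -0.05. Without NC 1, or without both, 10 of 10 members did, and without both their median was 0.49. The groups overlapped for all 10 members, whereas 0.139% of the genes tested separated them completely. AX 6 was the highest library for 7 of the 10 members, against 25.8% of all genes tested, and NC 1 for the other 3, against 8.66%. For 6 of the 10 the highest library held at least 4 times the median of the 10 libraries, as it did for 8.35% of all genes. The lowest library was NC 4 or NC 5 for 9 of the 10 members and for 17.3% of all genes.

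Among the fibrillar collagens, Col1a1 stood at 48.5, 15.5, 14.2, 12.4 and 12.7 CPM in AX 6, AX 7, AX 8, AX 9 and AX 10, against 37.7, 12.2, 14.7, 7.04 and 4.5 CPM in NC 1, NC 2, NC 3, NC 4 and NC 5. A single library of each group was high, and the rest of AX lay in a narrow band that NC 2 and NC 3 met or approached. The means were 20.7 ± 15.6 CPM in AX and 15.2 ± 13.2 CPM in NC (SD, n = 5 each). Its log2 fold change of 0.44 had a 95% interval from -0.85 to 1.73, and it turned to -0.15 without AX 6 and grew to 1.10 without NC 1.

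Col1a2, the partner chain of type I collagen, stood at 93.5, 22.6, 41, 24.1 and 22.5 CPM in AX 6 to AX 10, against 60.2, 17, 21.5, 15.6 and 15.1 CPM in NC 1 to NC 5. Apart from NC 1, every NC value lay below every AX value. The log2 fold change was 0.66 ± 0.52 (SE), with an interval from -0.49 to 1.80, and it became 0.09 without AX 6, 1.24 without NC 1 and 0.67 without both. The ratio of Col1a1 to Col1a2 in FPKM ranged from 0.809 to 1.6 in AX and from 0.696 to 1.68 in NC, a 2.42-fold range over 10 libraries. The groups did not differ in this ratio beyond their spread (exact two-sided permutation p = 0.889).

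Col3a1, the type III collagen gene, followed another order of libraries. It stood at 35.5, 19.1, 49, 44.2 and 39.6 CPM in AX 6 to AX 10, against 67.4, 19.6, 14.8, 17.8 and 8.18 CPM in NC 1 to NC 5. AX 6 lay below AX 8, AX 9 and AX 10 here, and 4 of 5 AX values exceeded every NC value except that of NC 1. The means were 37.5 ± 11.4 CPM in AX and 25.6 ± 23.8 CPM in NC (SD, n = 5 each), with a log2 fold change of 0.55 ± 0.51 (SE). Without NC 1, the highest library for this gene, the log2 fold change was 1.31, and without AX 6 and NC 1 together it was 1.33. In the latter edgeR fit its unadjusted p was 0.00388 and its adjusted p was 1, and 319 of 12156 genes had an unadjusted p under 0.05. Leaving out the highest NC value raises the fold change by itself, so this p is no separate support for a difference. The ratio of Col3a1 to Col1a1 in FPKM was 2.23, 2.3 and 2.01 in AX 8, AX 9 and AX 10 but 0.473 and 0.797 in AX 6 and AX 7, against 0.65 to 1.64 in NC. The groups overlapped in this ratio (exact two-sided permutation p = 0.619).

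Serpinh1, the collagen chaperone, had the largest fitted difference of the 10. It stood at 203, 56, 88.5, 35.2 and 40.2 CPM in AX 6 to AX 10, against 41.3, 25.6, 42.8, 22.8 and 37.4 CPM in NC 1 to NC 5. AX 6, AX 7 and AX 8 lay above every NC library, whereas AX 9 and AX 10 lay within the NC range. The means were 84.5 ± 69.2 CPM in AX and 34 ± 9.19 CPM in NC (SD, n = 5 each). The log2 fold change was 1.31 ± 0.46 (SE), with a 95% interval from 0.30 to 2.33, which covers folds from 1.23 to 5.03. Its unadjusted p was 0.0158 and its adjusted p was 1 in edgeR, and 0.408% of the genes tested were higher in AX at an unadjusted p under 0.05. The log2 CPM means differed at p = 0.0714 (exact permutation, two-sided), where the smallest p that 5 against 5 allows is 0.00794. The fold change stayed positive under every alternative run, from 0.69 without AX 6 to 1.51 without AX 9. Unadjusted p ranged from 0.00574 to 0.0448 over those alternatives. They reuse the same libraries, and Serpinh1 had the smallest p of the 10 members, so these p are no separate support for a difference.

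AX 6 and NC 1 were the 2 highest libraries for 8 of the 10 genes, and for 19.1% of all genes tested. Serpinh1 and Col3a1 were the exceptions, and AX 8 took the place of NC 1 for Serpinh1 and of AX 6 for Col3a1. Set against Col1a2 in FPKM, Serpinh1 stood at 9.06 to 15.4 in AX, against 9.11 to 15.4 in NC other than NC 1, where it was 4.25. NC 1 was thus high in collagen mRNA without being high in the mRNA of the chaperone, and the groups did not differ in this ratio beyond their spread (exact two-sided permutation p = 0.286).

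**Figure D2:**
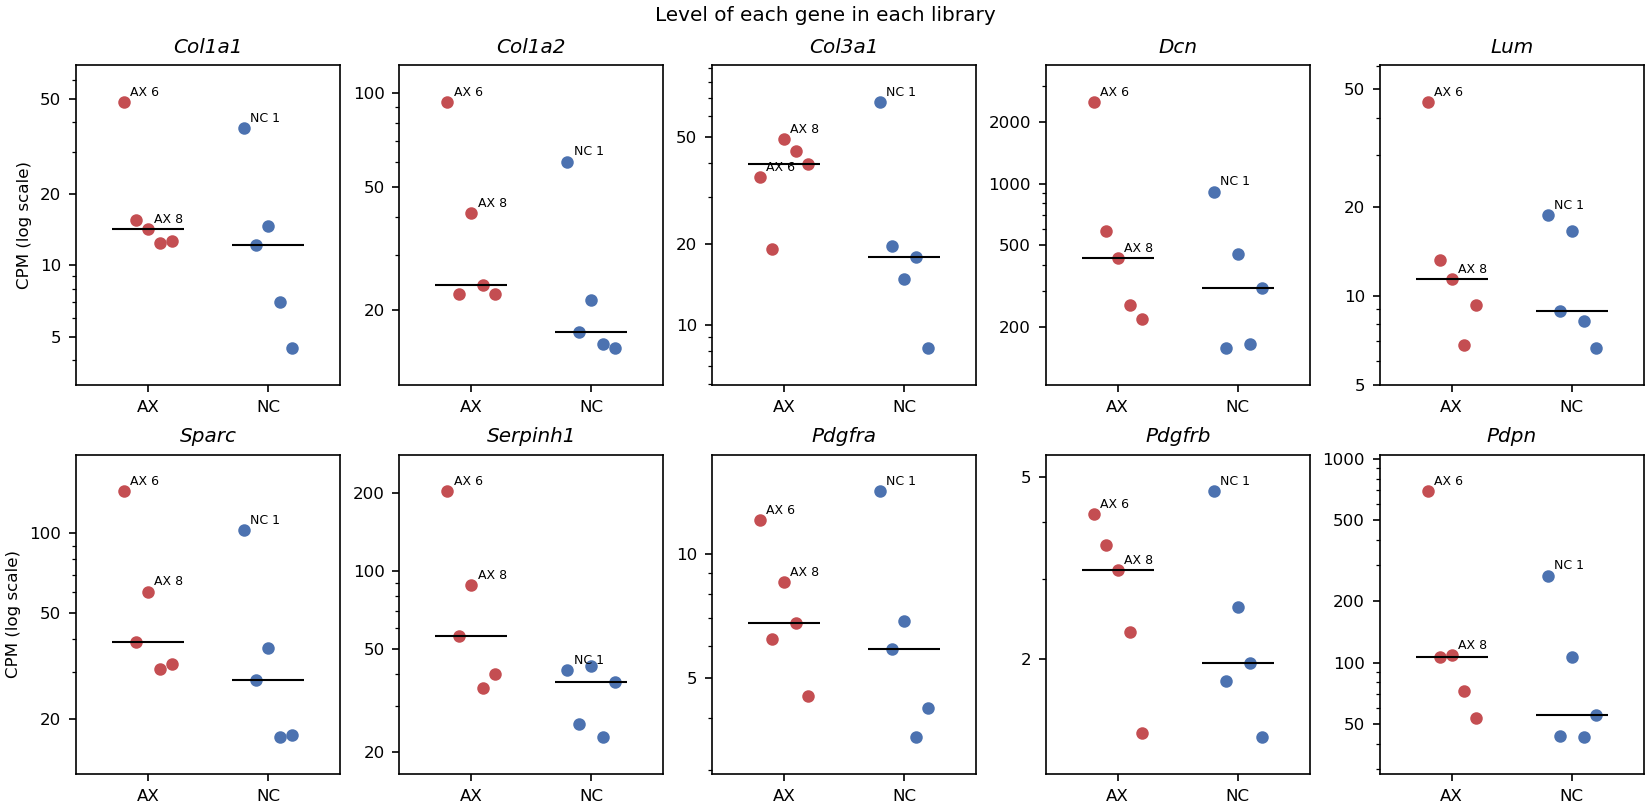
CPM on a log axis for each of the 10 genes, with 1 point per library, a line at the median of each group, AX at the left of NC, and AX 6, AX 8 and NC 1 named. AX 6 or NC 1 is the highest point in every panel, and the groups overlap in all 10 panels.

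Dcn, the decorin gene, varied more between libraries than it differed between groups. It stood at 2504, 585, 431, 255 and 218 CPM in AX 6 to AX 10, against 914, 157, 451, 164 and 307 CPM in NC 1 to NC 5. The 4 AX libraries other than AX 6 lay within the NC range. Its log2 fold change of 1.0 had a 95% interval from -0.60 to 2.61 and turned to -0.10 without AX 6. Lum, the lumican gene next to it on chromosome 10, stood at 6.83 to 45.3 CPM in AX and 6.65 to 18.8 CPM in NC, with AX 6 again the highest. Its log2 fold change was 0.54 ± 0.53 (SE), which turned to -0.21 without AX 6 and was 0.02 without AX 6 and NC 1 together. The ratio of Dcn to Lum in FPKM was 23.3 to 55 in AX and 17.6 to 48.3 in NC, a 3.13-fold range over 10 libraries. The groups did not differ in it beyond their spread (exact two-sided permutation p = 0.333).

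Sparc, the matricellular collagen binder, stood at 144, 39, 60.4, 30.8 and 32.4 CPM in AX 6 to AX 10, against 103, 28.1, 37.2, 17.1 and 17.4 CPM in NC 1 to NC 5. The order of libraries was close to that of Col1a2, with AX 6, NC 1 and AX 8 at the top and NC 4 and NC 5 at the bottom. The log2 fold change of 0.60 ± 0.59 (SE) was 0.00 without AX 6 and 1.30 without NC 1, and neither value passed.

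Both growth factor receptor genes had small fitted differences. Pdgfra spans 75152292 to 75198215 of chromosome 5 (plus) and Pdgfrb 61045150 to 61085061 of chromosome 18 (plus). Csf1r, the macrophage colony-stimulating factor receptor, begins 20.5 kb past the end of Pdgfrb on the same strand, and does not overlap it. Csf1r, a gene of macrophages, stood at 81.1 to 243 CPM in AX and 94.9 to 286 CPM in NC. Pdgfra stood at 4.54 to 12.1 CPM in AX and 3.6 to 14.2 CPM in NC, with a log2 fold change of 0.13 ± 0.41 (SE), which turned to -0.09 without AX 6 and to -0.04 without NC 4. Pdgfrb stood at 1.38 to 4.16 CPM in AX and 1.35 to 4.66 CPM in NC, with a log2 fold change of 0.23 ± 0.41 (SE). The interval for Pdgfra covers folds from 0.591 to 2.04 and that for Pdgfrb folds from 0.628 to 2.19, so both intervals include a 2-fold higher level in AX but not a 2-fold lower one.

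Pdpn, the podoplanin gene, had the widest interval. It stood at 692, 107, 109, 72.8 and 53.8 CPM in AX 6 to AX 10, against 267, 43.7, 107, 43.1 and 55.2 CPM in NC 1 to NC 5. AX 6 held more than any other library, and the other 4 AX libraries lay within the NC range. The log2 fold change of 1.01 had an interval from -0.71 to 2.72 and turned to -0.27 without AX 6.

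**Figure D3:**
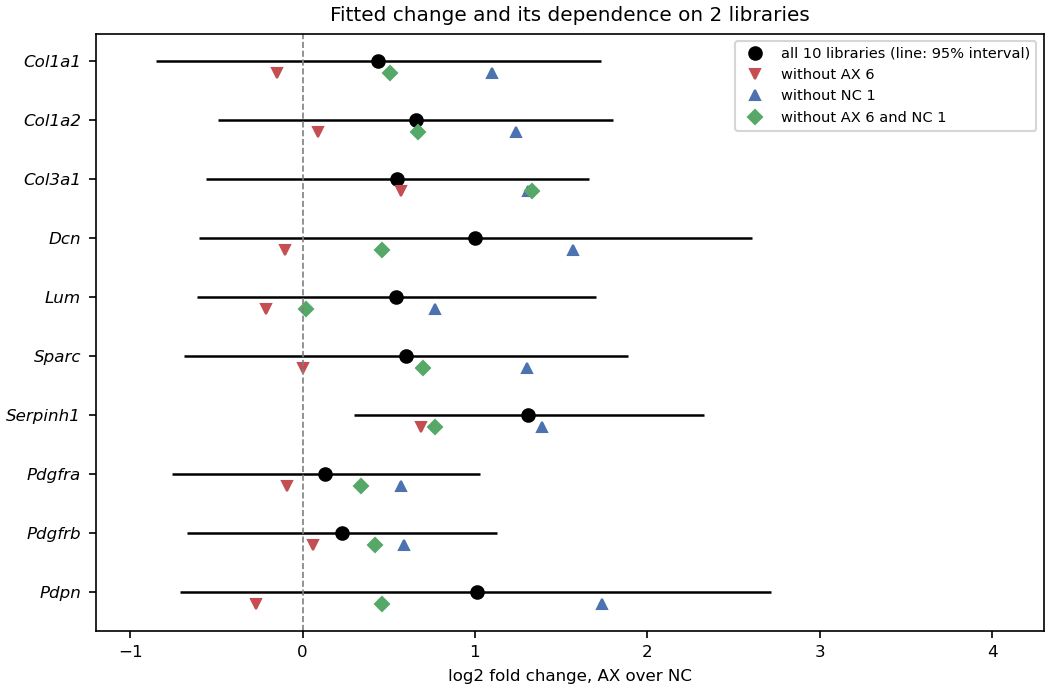
Log2 fold change of AX over NC for each gene from edgeR, with its 95% interval (black), and the value without AX 6, without NC 1 and without both. Leaving out AX 6 lowers every value except that of Col3a1, and leaving out NC 1 raises all 10, while only the interval of Serpinh1 lies above 0.

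Most markers of the lining of the cavity were highest in AX 6, as were most of these genes. Mesothelin, from Msln, is a surface protein that defines mesothelial cells, and it stood at 821, 105, 90, 58.1 and 39.3 CPM in AX 6 to AX 10, against 206, 35.5, 116, 29.9 and 41.3 CPM in NC 1 to NC 5. The summed level of the 18 mesothelial markers ran from 235 to 3819 CPM in AX, highest in AX 6. In NC it ran from 231 to 1558 CPM, highest in NC 1, and none of the 18 was at 0 throughout. The keratin gene Krt8 supplied 409 CPM of the sum in NC 1. It supplied 140 CPM in NC 4, where Msln stood at 29.9 CPM, so the sum did not follow Msln alone. All 17 that were tested had a higher fitted value in AX (median log2 fold change 1.01), and 0 of the 17 passed. Without AX 6, 4 of the 17 lay higher and the median was -0.17, and without AX 6 and NC 1 together 15 did, at a median of 0.31. AX 6 was the highest library for 15 of the 17. The part of these cells in the differences between groups was not tested.

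Set against Msln within each library, Pdpn and Dcn varied less than Col3a1. These ratios concern that marker only, since Wt1 and Cldn15 of the same list followed other orders of libraries. The FPKM ratio of Pdpn to Msln was 0.82 to 1.33 in AX and 0.89 to 1.4 in NC, a 1.71-fold range over 10 libraries. The ratio of Dcn to Msln was 3.09 to 5.64 in AX and 3.93 to 7.55 in NC, a 2.44-fold range. For Col1a2 the ratio to Msln spanned 5.02-fold, for Serpinh1 5.11-fold and for Col3a1 23.3-fold. The lowest ratio of Col3a1 to Msln was 0.00851 in AX 6 and the highest 0.199 in AX 10, and NC libraries lay between 0.025 and 0.118. None of these 5 ratios differed between the groups beyond their spread (exact two-sided permutation p from 0.437 for Pdpn to 0.976 for Col3a1, and adjusted p = 0.976 for each over the 12 ratios computed).

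**Figure D4:**
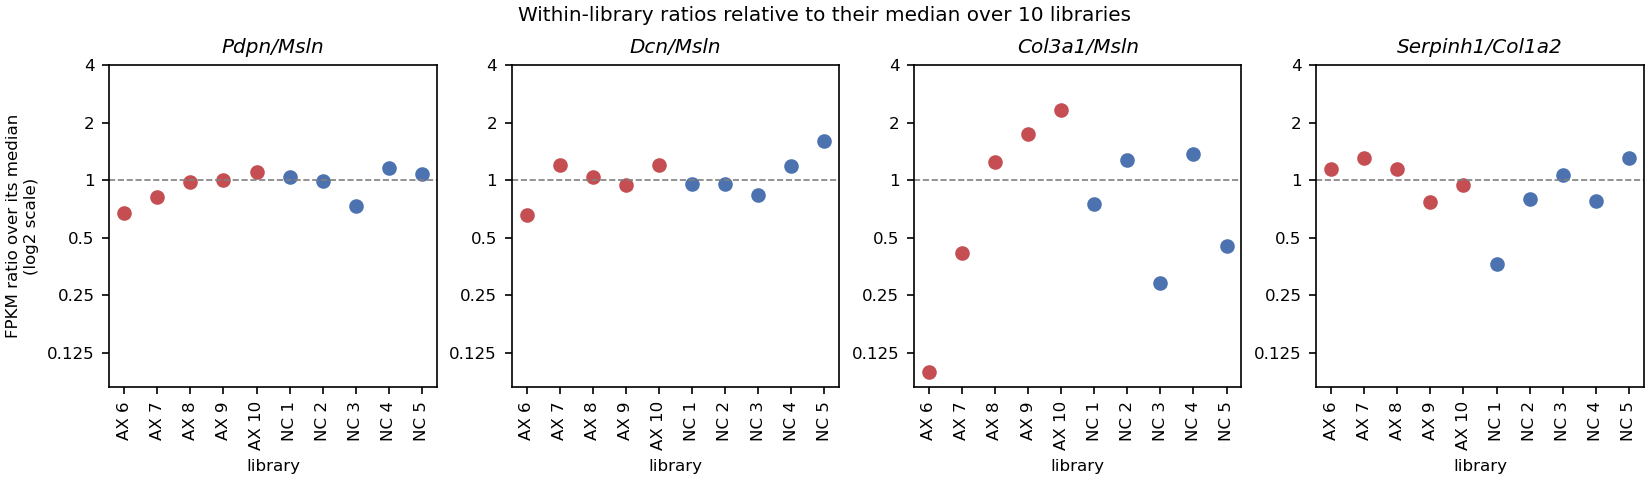
FPKM ratio of gene pairs within each library divided by its median over 10 libraries, on a log2 axis, with AX at the left of NC. Pdpn/Msln stays within a 1.71-fold range, Col3a1/Msln spans 23.3-fold with AX 6 lowest, and Serpinh1/Col1a2 is lowest in NC 1.

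Markers of other stromal cells were uneven. Of 13 fibroblast markers, 10 were tested: the fitted value was higher in AX for 8 and lower for 2, and 0 passed. Without AX 6 the split was 5 and 5, and without AX 6 and NC 1 together 3 of 8 tested lay higher. Their summed level was 253 to 2077 CPM in AX and 267 to 756 CPM in NC, and Igfbp6, a binding protein of insulin-like growth factors, was the highest of the list in each library, at 99.2 to 1299 CPM in AX and 111 to 383 CPM in NC. Dpt, the dermatopontin gene of matrix-producing fibroblasts, was singled out after its values were seen, and it reached 3.29 CPM in AX 6 and 6.65 CPM in NC 1 but no more than 0.731 CPM in any other library. Pi16, a marker of adventitial fibroblasts also singled out after its values were seen, went the other way, at 3.64 CPM in AX 6 and 5.12 to 20.9 CPM in the other AX libraries, against 3.8 CPM in NC 1 and 14.4 to 21.8 CPM in NC 2 to NC 5. Of 11 pericyte and smooth muscle markers, Notch3 had no count in any library and Myh11, Cnn1, Rgs5, Cspg4, Mcam and Abcc9 stayed under 1 CPM in all 10. Acta2, smooth muscle actin, averaged 14.8 ± 5.41 CPM in AX and 15 ± 3.58 CPM in NC (SD, n = 5 each). Of 11 endothelial markers, Emcn had no count and Cdh5, Tek, Prox1, Cldn5 and Tie1 stayed under 1 CPM. The 3 endothelial genes tested lay lower in AX, and of the 3 pericyte and smooth muscle genes tested 2 lay higher and 1 lower, with 0 passing. Without AX 6 and NC 1 together, 1 of 3 lay higher in AX in each list. Pecam1, which leukocytes also express, averaged 74 ± 40.1 CPM in AX and 78.4 ± 24.3 CPM in NC. Other markers of these cells were counted at levels like those of Pdgfrb: Kdr, a receptor of vascular endothelial growth factor, reached 2.95 CPM in AX and 4.49 CPM in NC, and Des, desmin, 2.43 CPM in AX and 5.27 CPM in NC. Vwf, von Willebrand factor, had a median of 2.84 CPM over the 10 libraries. The part of pericytes and vessels in the values of Pdgfrb and the collagens was not tested.

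Other collagens were described from a wider list. Of 12 tested basement membrane and other collagens, all 12 had a higher fitted value in AX (median log2 fold change 0.81), and 0 passed. Without AX 6 the split was 6 higher and 6 lower (median -0.08), and without both AX 6 and NC 1 all 12 lay higher (median 0.45). AX 6 was the highest library for 11 of them. Col4a1, a chain of the type IV collagen of basement membranes, stood at 630, 157, 88.5, 58.8 and 32.3 CPM in AX 6 to AX 10, against 275, 50.5, 158, 33.7 and 43.3 CPM in NC 1 to NC 5, with AX 6 and NC 1 again the highest of their groups. Col6a1, of type VI collagen, stood at 27.3 to 240 CPM in AX and 25.8 to 143 CPM in NC. Col8a1 had the smallest p of the list, with 3 ± 2.23 CPM in AX and 0.93 ± 0.865 CPM in NC and an unadjusted p of 0.0561 in edgeR (log2 fold change 1.67 ± 0.78, SE). Other fibrillar collagens behaved less uniformly: of 5 tested, 3 were higher and 2 lower in AX, against 1 and 4 without AX 6 and 5 and 0 without both, and NC 1 was the highest library for 3. Col5a3, a type V chain, reached 123 CPM in NC 1 and 59 CPM in AX 6.

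Enzymes that process collagen fell into those that followed the collagens and those that did not. Of 22 tested, 16 lay higher in AX and 6 lower (median log2 fold change 0.23), and 0 passed. Without AX 6 the split was 11 and 11, and without AX 6 and NC 1 together 14 and 7. Pcolce, which enhances the removal of the procollagen end peptide, stood at 6.33 to 227 CPM in AX, highest in AX 6, and 8.84 to 48 CPM in NC, highest in NC 1. Lox, the lysyl oxidase that crosslinks collagen, stood at 22.5 to 92.4 CPM in AX and 9.91 to 66.4 CPM in NC. P4hb, a protein disulfide isomerase that is also a subunit of prolyl hydroxylase in all cells, varied less between libraries and averaged 1051 ± 257 CPM in AX and 1178 ± 191 CPM in NC (SD, n = 5 each), and P4ha1 averaged 164 ± 17.2 CPM in AX and 174 ± 50.2 CPM in NC. For P4hb and P4ha1, AX 6 and NC 1 did not stand out.

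Of 14 matricellular and elastic matrix genes tested, 10 had AX 6 and NC 1 as the 2 highest libraries, as did 19.1% of all genes tested. Thbs1 and Fn1, which leukocytes also express, showed other orders of libraries. Over the whole list, fitted values lay higher in AX for 11 of 14 tested and lower for 3, and 0 passed. Without AX 6, 6 lay higher and 8 lower, and without both AX 6 and NC 1, 11 of the 12 still tested lay higher. Thbs1, thrombospondin 1, stood at 7245 to 22910 CPM in AX and 9063 to 42527 CPM in NC, with its maximum in NC 3. Fn1, fibronectin, which macrophages make in quantity, stood at 32.9 CPM in AX 6 and 109 to 759 CPM in the other AX libraries, against 29.8 CPM in NC 1 and 23.5 to 776 CPM in NC 2 to NC 5, so the libraries highest in decorin were among the lowest in fibronectin. Tnc, tenascin C, stood at 0.973 to 90.2 CPM in AX and 1.56 to 20 CPM in NC, highest in AX 6 and NC 1. All 4 tested small leucine-rich proteoglycans other than the members were higher in AX with all libraries and without both AX 6 and NC 1, with 0 passing, but all 4 were lower without AX 6 alone. Among them was Fmod, fibromodulin, at 3.24 to 59.5 CPM in AX and 2.87 to 24.5 CPM in NC.

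Ligands for the receptors were present at low levels. Pdgfb stood at 5.84 to 17.9 CPM in AX and 3.78 to 30.7 CPM in NC, and Pdgfa at 2.83 to 8.41 CPM in AX and 1.67 to 12.1 CPM in NC, both highest in NC 1. All 3 tested ligand genes had a higher fitted value in AX (median log2 fold change 0.10), and 0 passed. Without AX 6, 1 of the 3 did, and without both AX 6 and NC 1, all 3. Of 10 genes of ligands, receptors and latent binding proteins of TGF-β, a main inducer of collagen, 9 lay higher in AX and 1 lower, at a median of 0.74, and 0 passed. Without AX 6, 7 lay higher at a median of 0.05, and without both AX 6 and NC 1, 9 at 0.38. Tgfb1, the ligand gene that leukocytes express, stood at 64.9 to 141 CPM in AX and 87 to 144 CPM in NC.

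**Figure D5:**
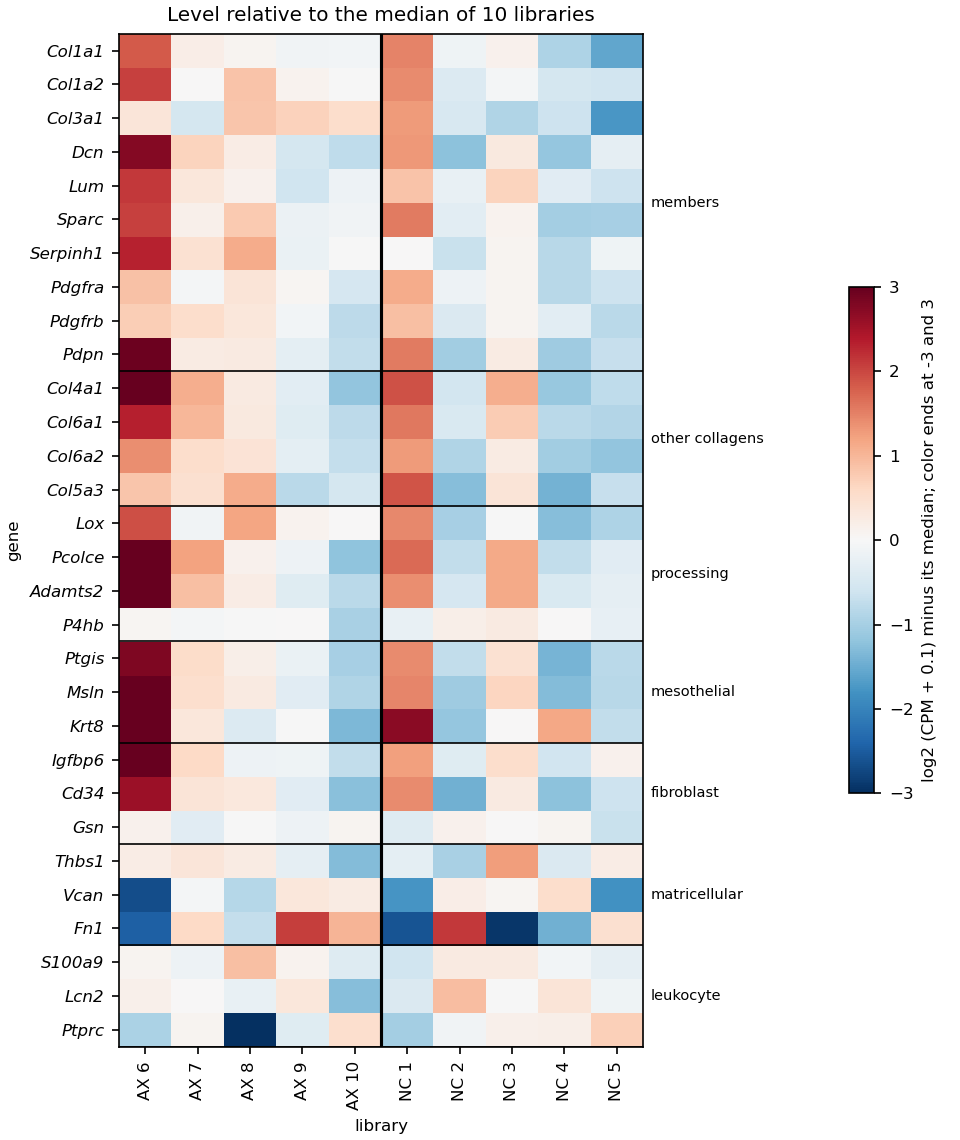
Log2 of CPM + 0.1 minus its median over 10 libraries, for the 10 members and for genes of other lists (rows), in each library (columns, AX at the left of NC). AX 6 and NC 1 are red for most members, other collagens and mesothelial genes, and are blue for Fn1 and Vcan.

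Patterns most like the fibrillar collagens were sought among genes tested at a mean log2 CPM of at least 1. By Spearman correlation over the 10 libraries with the mean of standardised Col1a1, Col1a2 and Col3a1 levels, the closest was Col8a1, a short-chain collagen gene (rho = 0.988). Arsb, Hsf2, Krt14, Nid1 and Rab11fip5 followed at 0.964 and Cfl2 at 0.952. Nid1 encodes nidogen, a linker of basement membranes. Serpinh1 was matched most closely by Tuba4a, an α-tubulin gene, whose 10 libraries stood in the same order (rho = 1), then by Chrnb1 (0.964), Dbt and Sowahc (0.939) and Arl4c (0.927). Tuba4a stood at 188 CPM in AX 6 and had a median of 50.4 CPM. Sparc was matched by Actn1, P3h4, Rhoj, Tcaf1 and Ubxn7, all at 0.988. Pdpn was matched by Amotl1, Cpe and Tnxb at a rho of 1 and by Adamts4 and C1ra at 0.988. No gene was shared between the 4 searches. The values are descriptions of 10 libraries that share AX 6 and NC 1 as high points, chosen as the highest of many. Without those 2 libraries, Pearson's r of the named genes was 0.83 to 0.98 in the collagen search, 0.78 to 0.96 in that for Serpinh1, 0.77 to 0.93 in that for Sparc and 0.90 to 0.98 in that for Pdpn.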

How the data were processed

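Polyadenylated RNA of peritoneal lavage cells from 10 samples, 5 AX and 5 NC, was sequenced, per the labels' protocols. The submitters' processing notes name the aligner HISAT2 2.0.4 and mouse build mm10. The sources used here give no counting tool, annotation release or use of strand. The authors' deposited table holds whole-number raw counts, not normalised. It also holds the authors' FPKM. They match counts over column sum and a fixed length per gene to within 7.81e-05 of the value for 10527 genes. The lengths that the FPKM imply differ from GENCODE M21 exon lengths for the members, for Dcn at 2084 against 5838 bases. Of the identifiers, 34267 of 34745 occur in GENCODE M21, with an identical span for 27699 (6 of the 10 members).

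Counts were analysed with edgeR 4.0.16 in R 4.3.3: filterByExpr by group, TMM scaling, two-sided quasi-likelihood F test, Benjamini-Hochberg adjustment over 12264 genes, threshold 0.05, no covariate. CPM use the TMM-scaled library sizes, so reads per library set their precision. The SE is the fold change over the root of F. Alternatives were DESeq2 1.42.0, limma 3.58.1 (voom, with and without library quality weights, and log2 FPKM with a pseudocount of 1 or 0.1), other scalings and filters (50 counts in 5 libraries), and leaving out libraries. Per-length levels were also computed with M21 exon lengths, and the other lists without AX 6, NC 1 or both, chosen after seeing the data. Python 3.11.15 with scipy 1.17.1 gave exact permutation tests. Where a symbol had 2 rows, the row with more counts was used.

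Members and lists were chosen with earlier results of these data known. Named genes are the members; up to 3 genes of each other list with the smallest p and 3 with the highest median CPM; and, among genes at a mean log2 CPM of at least 1, up to 8 closest by Spearman correlation to the fibrillar collagens and 5 each to Serpinh1, Sparc and Pdpn. One gene that this rule names is not reported here. Markers at or near 0, Csf1r, Kera, Epyc, Dpt, Pi16, Gata6 and Wt1 fall outside that rule and were chosen after their values were seen. The labels do not say that the samples came from separate animals, so the p-values refer to variation among these 10 samples, part or all of which may be technical.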

Additional observations from a re-analysis of the deposited data

Results flagged for a closer look

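Of 20 groups examined (10 genes in AX and in NC), 10 held a library whose CPM lay far from the other 4. The mark was a gap to the nearest library above 0.71 of the group's range, on CPM without logarithm. For normally distributed values, about 1 in 20 groups would pass it. These CPM were not shown to be normally distributed, so 10 of 20 is a description and no measure of an excess over chance. AX 6 stood far above the other AX libraries for 6 genes: 48.5 CPM for Col1a1, 93.5 CPM for Col1a2, 2504 CPM for Dcn, 45.3 CPM for Lum, 144 CPM for Sparc and 692 CPM for Pdpn. NC 1 stood far above the other NC libraries for 4 genes: 60.2 CPM for Col1a2, 67.4 CPM for Col3a1, 103 CPM for Sparc and 267 CPM for Pdpn. The genes share their libraries, so these are not separate events. The summed mesothelial markers were also highest in AX 6 (3819 CPM) and NC 1 (1558 CPM), and their part in these values was not tested.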

How the results depend on the processing

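Of 209 member values under 21 alternatives, 203 kept their direction and 0 of the 208 with an adjusted p passed the threshold. DESeq2 gave 1 gene, Pdpn, no p. The 6 that changed sign did so on leaving out 1 library: without AX 6 the log2 fold change was -0.15 for Col1a1, -0.10 for Dcn, -0.21 for Lum, -0.09 for Pdgfra and -0.27 for Pdpn, and without NC 4 it was -0.04 for Pdgfra. Without NC 1 these 5 genes stood at 1.10, 1.57, 0.77, 0.57 and 1.74 in that order, the highest values on leaving out a library. The cause was not tested. The members' median log2 fold change ranged from -0.05 without AX 6 to 1.27 without NC 1, and was 0.49 without both. The number of members called was 0 throughout, and that of all genes was 0 to 1 on leaving out a library (1 without NC 3) and 0 otherwise. Genes at an unadjusted p under 0.05 numbered 113 with all libraries, 193 with DESeq2, 380 with library quality weights, 313 with no filter, 381 without AX 6, 433 without NC 1 and 319 without both. Total-count scaling kept all 10 members higher in AX, with a median over all genes of -0.04. No paired analysis was possible because AX and NC share no replicate number. Depth limits the receptor genes most, since Pdgfrb had 15 to 54 counts per library and was not tested at a minimum of 50 counts in 5 libraries.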

Other observations

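Large peritoneal macrophages reside in the cavity before infection. The summed level of 15 of their markers was 121 to 582 CPM in AX, highest in AX 9, and 105 to 303 CPM in NC, highest in NC 4. Much of both sums came from Cxcl13 (236 CPM in AX 9 and 86 CPM in NC 4) and Adgre1 (87.5 CPM in AX 9 and 135 CPM in NC 4). In NC, the library with the highest sum thus depends on the markers summed. Fitted values lay higher in AX for 10 of the 12 tested and lower for 2 (median log2 fold change 0.70), and 0 passed. Without AX 6 that split was the same (median 0.35), and without AX 6 and NC 1 together 11 lay higher and 1 lower (median 0.47). Prg4, proteoglycan 4, reached 115 CPM in AX 9 and, in NC, 44.5 CPM in NC 1. Gata6, a transcription factor of these macrophages that mesothelial cells also express, was highest in AX 6 at 83.8 CPM and in NC 1 at 41.2 CPM.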
